A study of Mus musculus with 6 samples.

Results

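Cyclins E, A and B and the kinases they activate drive a cell from the end of G1 through mitosis. Their RNA was measured in neonatal retinas of mice without cyclin D1 (cyclin D1-/-) and of wildtype mice. The members are 10 genes: Ccne1, Ccne2, Cdk2 and Cdc25a, which act at the G1/S boundary, Ccna2, which acts in S and G2 phases, and Ccnb1, Ccnb2, Cdk1, Cdc25b and Wee1, which act at the G2/M boundary. Their probe sets were taken by gene symbol, as every probe set annotated to 1 of these symbols alone, whatever its measured value. The list of genes itself was chosen with earlier results of these data known. A probe set is a group of short array probes for 1 transcript. Of 18193 genes named by a probe set, 9 members were found, with 15 probe sets of 34945 that carry a single gene symbol. Ccnb1 has no named probe set in the annotation used here, so no value is given for it.

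There were 3 numbered retina pools of each genotype, with 1 Affymetrix expression array for each pool. The study asked whether genes bound by cyclin D1 change in expression in its absence. The labels name no strain, give no account of how the deletion was made and do not state the number of animals in a pool, and the spread behind each p-value, which is that among these pools, may be technical. Signals below are array intensities after quantile normalisation, unless given as deposited or as before normalisation. They are in arbitrary units that cannot be set against those of another probe set. Differences are knockout minus wildtype on the scale of log2(signal + 16), which understates the change of dim genes, and a gene is called when its limma p-value, adjusted by the Benjamini-Hochberg method over all 10916 genes tested, is under 0.1.

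Cyclins E, A and B are subunits that are made and destroyed once in each cell cycle. A cyclin-dependent kinase (Cdk) is active only while a cyclin is bound to it. Cyclin D1 works with Cdk4 and Cdk6 in G1 to inactivate the retinoblastoma protein, which frees E2F factors to turn on cyclin E and later cyclin A. Cyclin B with Cdk1 then drives mitosis once Cdc25 phosphatases have removed the phosphate that Wee1 places on Cdk1. In the newborn mouse retina many progenitor cells still divide.

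The deletion was visible in every pool. Ccnd1 had a signal of 447, 432 and 468 units in knockout pools 1, 2 and 3, against 5508, 5218 and 6017 units in wildtype pools 1, 2 and 3 (log2 difference -3.59, limma adjusted p = 5.78e-07). Progenitor markers were present on all arrays, with 9 of 10 listed markers named and tested. Their summed signal was 4506 to 4888 units in knockout pools and 5192 to 5492 units in wildtype pools, 2 of the 9 were called lower and 1 higher, and the median difference was -0.08. Genes listed as lens markers summed to 27585 to 70834 units in knockout pools and 3610 to 9836 units in wildtype pools. Of these genes, 12 of 15 were called higher and none lower, and the tissue behind their signal was not tested. Of the markers of differentiated neurons, 4 of 7 for ganglion cells and 3 of 8 for photoreceptors were called higher, and 3 of 6 for amacrine and horizontal cells lower. Pigment epithelium had 1 of 5 tested markers called lower, and neither of the 2 tested vessel markers was called. Over all genes tested, 2.63% were called lower and 2.03% higher. Markers of red blood cells were too dim to be tested, with sums of 45.6 to 48.8 units in knockout and 43.1 to 60.6 units in wildtype pools. The part of these shifts in the members' values was not tested. The arrays were also cut into 2 sets of 3 by rank of their hybridisation controls, and these sets do not follow genotype. Such a cut gives 2 sets of 3 whatever the values. BioB and BioC hybridisation controls, which are added to each sample, were brighter on knockout pools 1 and 2 and wildtype pool 3 than on knockout pool 3 and wildtype pools 1 and 2. Their mean log2 signal before normalisation, in rising order, was 9.82, 9.97 and 10.15 in the first set and 9.53, 9.66 and 9.66 in the second. The step at the cut was not the widest between neighbours, so the cut marks no clear break in the controls. Median intensity of the deposited values also parted these sets. It was 48.2, 49.5 and 50.5 units in knockout pools 1 and 2 and wildtype pool 3. In knockout pool 3 and wildtype pools 1 and 2 it was 44.5, 42.6 and 40.6 units. Beta-actin signal at the 3' end over that at the 5' end is a measure of RNA integrity. Before normalisation this ratio was 1.66, 2.04 and 1.49 in knockout pools 1, 2 and 3 and 1.70, 2.22 and 1.72 in wildtype pools 1, 2 and 3. It did not separate the sets.

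Of the 9 members tested, 3 fell in knockout retinas and none rose. The 3 were Ccna2, Cdk1 and Ccnb2, which all act from S phase to mitosis, whereas none of the 4 members of the G1/S boundary was called. Cdc25b and Wee1, 2 of the 4 tested G2/M members, were not called either, and the difference between phases was not tested. Of all genes tested, 2.63% were called lower and 2.03% higher. With no quantile normalisation, calls over all genes were 176 lower and 416 higher, where quantile-normalised values gave 287 lower and 222 higher, and the difference of the median gene was 0.13, where it was otherwise 0.02. The same 3 members were called lower there. The median difference of the 4 G1/S members was -0.02, and that of the 4 tested G2/M members was -0.73. The G1/S value depended on the probe set, since with the dimmer tested probe set of each gene that had 2, an alternative chosen after seeing the data, the medians were -0.30 and -0.75. In 4 of the 9 members, Ccne2 besides the 3 called, every knockout pool lay below every wildtype pool. The same held for 9.48% of all genes tested. In bulk retina, fewer dividing cells and less RNA per dividing cell cannot be told apart.

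**Figure D1:**
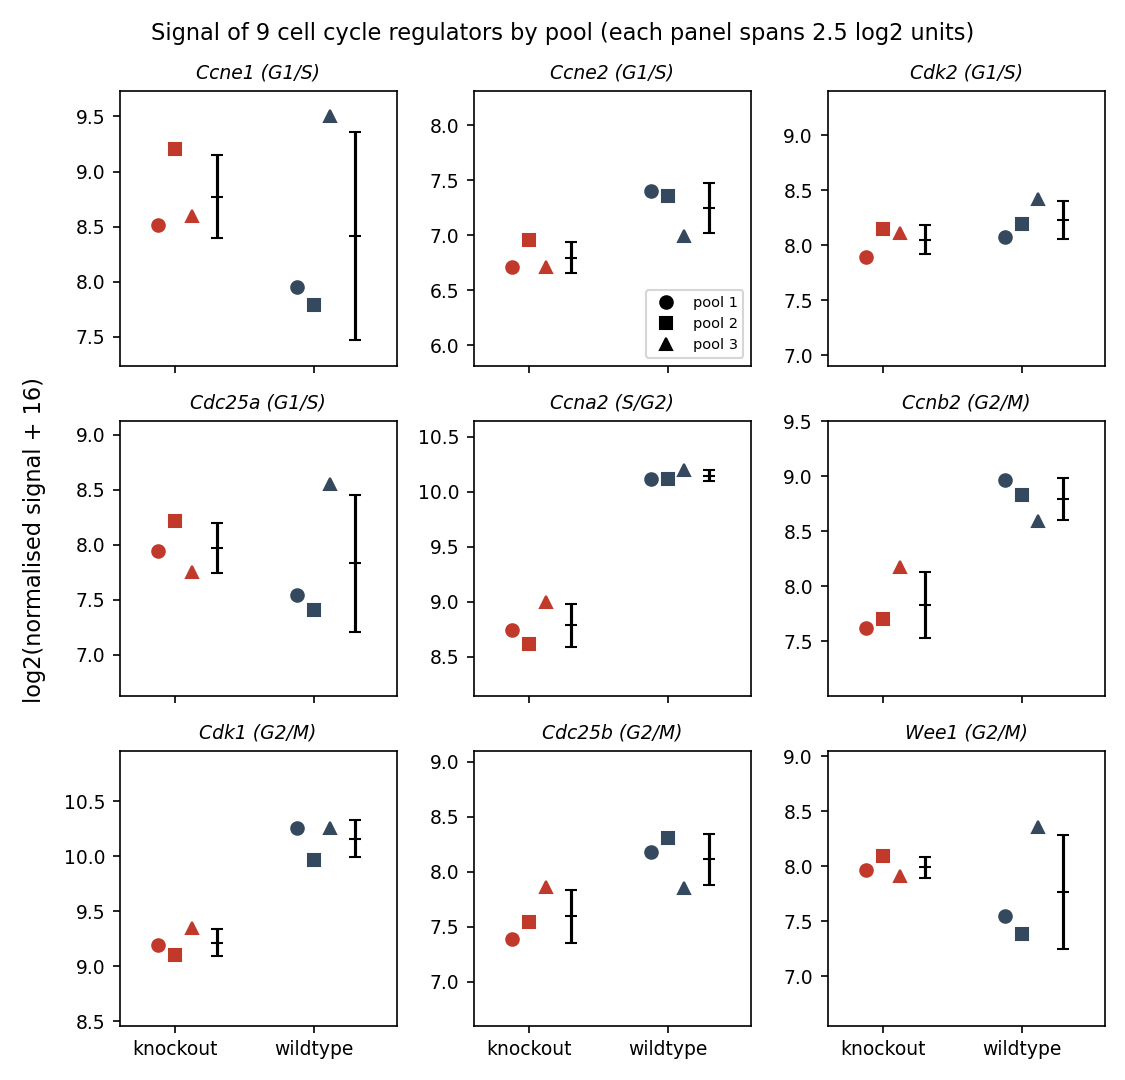
Level of each member by pool, as log2(normalised signal + 16), with knockout pools left of wildtype pools in each panel; circles, squares and triangles are pools 1, 2 and 3, and the black mark and bar are the mean and SD of the 3 pools. Every knockout pool lies below every wildtype pool for Ccna2, Ccnb2, Cdk1 and, narrowly, Ccne2. Wildtype pool 3 stands apart from the other wildtype pools for Ccne1, Cdc25a and Wee1.

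Ccna2 encodes cyclin A2, the partner of Cdk2 in S phase and of Cdk1 in G2, and it showed the largest fall of the 9. Its brighter probe set, 1417910_at, had 412, 377 and 495 units in knockout pools 1, 2 and 3, against 1096, 1096 and 1162 units in wildtype pools 1, 2 and 3. The groups did not overlap, and the highest knockout pool held less than the lowest wildtype pool by a wide margin. The mean level was 8.79 ± 0.19 in knockout and 10.15 ± 0.05 in wildtype pools (log2, SD, n = 3 each), a difference of -1.36 (SE 0.11, 2.57-fold lower, limma adjusted p = 0.00108). The dimmer probe set, 1417911_at, had 264, 237 and 302 units in knockout pools and 726, 595 and 595 units in wildtype pools, a difference of -1.21 (SE 0.13) in a fit over 20967 probe sets (limma adjusted p = 0.00288). Both probe sets therefore showed separate groups and falls of more than 2.3-fold. The ratio between them was alike on all arrays, with a log2 ratio of 0.64 ± 0.04 in knockout and 0.80 ± 0.19 in wildtype pools (SD, n = 3 each).

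Cdk1 is the kinase that cyclins A and B use to start mitosis. Its single probe set, 1448314_at, had 572, 535 and 635 units in knockout pools, against 1210.3, 985 and 1206 units in wildtype pools. The knockout pools lay close together and below every wildtype pool. The level was 9.22 ± 0.12 in knockout and 10.16 ± 0.17 in wildtype pools (log2, SD, n = 3 each), a difference of -0.94 (SE 0.11, 1.92-fold lower, limma adjusted p = 0.00508). Within the sets of arrays the difference was -1.10 where the spike-in controls were brighter and -0.77 where they were dimmer, and that of Ccna2 was -1.52 and -1.12. A within-set value rests on a single array of 1 genotype.

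Ccnb2 encodes cyclin B2, a mitotic partner of Cdk1 that is found mainly at the Golgi apparatus. Its probe set, 1450920_at, had 181, 192 and 273 units in knockout pools and 483, 438 and 369 units in wildtype pools. The groups did not overlap, but the highest knockout pool and the lowest wildtype pool, both numbered 3, came nearest to each other. The level was 7.83 ± 0.30 in knockout and 8.79 ± 0.19 in wildtype pools (log2, SD, n = 3 each), a difference of -0.96 (SE 0.17, 1.95-fold lower, limma adjusted p = 0.0258). Within the sets it was -0.93 with brighter and -0.72 with dimmer controls. This call depended on single pools, since the adjusted p from limma was 0.124 without knockout pool 1, 0.135 without knockout pool 2 and 0.117 without wildtype pool 1. The difference was -0.85, -0.88 and -0.88 in these fits. Calls were fewer over all genes there too, with 0.989%, 1.02% and 1.21% called lower, against 2.63% with all 6 arrays. Merging pools 1 and 2 within a genotype left 2 samples a group, and 0.238% of all genes were called lower. The adjusted p from limma was then 0.417 for Ccnb2, while those of Ccna2 and Cdk1 were 0.0625 and 0.0898.

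The promoters of Ccnb2 and Cdk1, both called lower, and of Cdk2 and Cdc25a, which were not called, are printed here because genes of late cell cycle phases are known to share a short element, the cell cycle genes homology region (CHR), and CCAAT boxes, whereas many genes of the G1/S boundary carry E2F sites. Sequences are from RefSeq, build GRCm38.p6, 5′ to 3′ on the strand of the gene, from 250 bases before the annotated start to 50 bases after it. Of the 10 listed genes, 7 had a promoter in that table. Ccna2, Ccne2 and Wee1 had none, so Ccna2, which was also called lower, is not covered. Capitals mark matches on either strand to the CHR (TTTGAA or TTCGAA), the CCAAT box (CCAAT) or the E2F site (TTTCCCGC, TTTGGCGC, TTTCGCGC or TTTGCCGC).
Ccnb2 promoter, chr9:70421505-70421804, minus strand: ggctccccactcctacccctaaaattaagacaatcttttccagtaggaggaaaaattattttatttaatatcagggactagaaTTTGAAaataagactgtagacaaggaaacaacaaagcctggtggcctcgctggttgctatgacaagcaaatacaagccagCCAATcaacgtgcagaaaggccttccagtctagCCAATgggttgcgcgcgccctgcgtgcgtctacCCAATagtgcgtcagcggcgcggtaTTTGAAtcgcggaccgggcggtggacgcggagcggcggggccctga
Cdk1 promoter, chr10:69352863-69353162, minus strand: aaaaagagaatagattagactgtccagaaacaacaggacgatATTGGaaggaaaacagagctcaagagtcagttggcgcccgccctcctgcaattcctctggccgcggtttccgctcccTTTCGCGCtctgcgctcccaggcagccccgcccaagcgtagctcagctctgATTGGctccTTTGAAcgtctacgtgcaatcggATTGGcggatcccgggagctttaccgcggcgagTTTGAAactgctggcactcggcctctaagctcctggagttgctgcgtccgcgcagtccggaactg
Cdk2 promoter, chr10:128705002-128705301, minus strand: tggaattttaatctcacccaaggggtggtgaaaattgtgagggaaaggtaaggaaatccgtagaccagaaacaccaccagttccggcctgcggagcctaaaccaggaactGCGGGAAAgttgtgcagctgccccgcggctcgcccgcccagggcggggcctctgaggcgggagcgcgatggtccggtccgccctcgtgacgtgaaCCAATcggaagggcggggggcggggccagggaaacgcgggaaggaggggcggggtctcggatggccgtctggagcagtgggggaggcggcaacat
Cdc25a promoter, chr9:109875329-109875628, plus strand: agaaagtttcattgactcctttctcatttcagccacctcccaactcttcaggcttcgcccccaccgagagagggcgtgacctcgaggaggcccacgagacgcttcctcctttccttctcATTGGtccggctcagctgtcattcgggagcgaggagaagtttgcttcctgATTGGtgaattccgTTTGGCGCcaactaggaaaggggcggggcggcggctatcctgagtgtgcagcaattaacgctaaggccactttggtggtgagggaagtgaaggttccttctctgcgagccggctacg

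Ccnb2 and Cdk1 each held 2 CHR matches and 3 CCAAT matches, and Cdk1 also held 1 E2F match. Cdk2 had 1 CCAAT and 1 E2F match and Cdc25a had 2 CCAAT and 1 E2F match, and neither had a CHR match in this window. No match overlapped one of another motif. In Cdc25b, which was not called, 1 CHR match and 1 CCAAT match were found, in Ccnb1 2 CCAAT matches alone, and in Ccne1 no match to any of the motifs. Among 32851 promoters of this length in the table, 19.2% held a CHR match, 37.4% a CCAAT match and 2.26% an E2F match. A match of letters is not a measured binding site.

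Cdc25b and Wee1 act on Cdk1 in opposite ways, Cdc25b as the phosphatase that activates it and Wee1 as the kinase that restrains it. Cdc25b (1421963_a_at) had 151, 171 and 216 units in knockout pools and 275, 299.8 and 216 units in wildtype pools. Knockout pool 3 and wildtype pool 3 were level, so the groups met. The difference was -0.52 (95% interval -0.91 to -0.13, limma adjusted p = 0.203). Within the sets it was -0.39 with brighter and -0.38 with dimmer controls, and with the set as a block it was called (-0.39, limma adjusted p = 0.0717). It was not called with pools 1 and 2 merged, which gives the same difference.

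**Figure D2:**
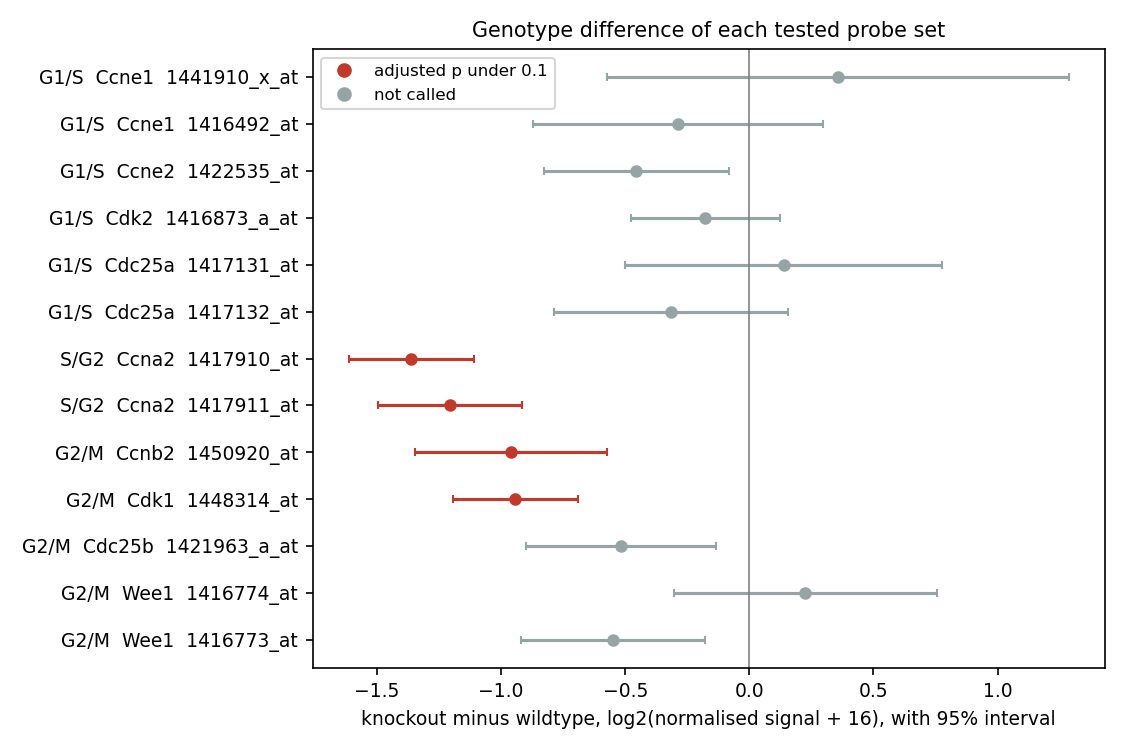
Difference of each of the 13 tested probe sets, knockout minus wildtype on the log2 scale, with its 95% interval from limma, grouped by cell cycle phase. The 4 probe sets in red, both of Ccna2 and those of Ccnb2 and Cdk1, passed an adjusted p under 0.1, and the 2 probe sets of Ccne1, Cdc25a and Wee1 lie on opposite sides of 0.

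Over probe sets, 13 of 15 were bright enough to be tested, 4 fell and none rose. Of all 20967 probe sets tested, 2.02% were called lower and 1.51% higher. In 6 of the 13 the knockout pools all lay below the wildtype pools, against 8.40% of all probe sets tested. The remaining 2 probe sets, 1 of Cdk2 and 1 of Cdc25a, had at most 13.9 units on any array and were left out.

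Among the G1/S members, Ccne2 and Cdk2 had 1 tested probe set each. Ccne2 encodes cyclin E2, which with cyclin E1 activates Cdk2 before S phase. It had 89.0, 108 and 88.8 units in knockout pools and 153, 148 and 111 units in wildtype pools (1422535_at). The groups did not overlap, though knockout pool 2 and wildtype pool 3 lay close. The difference was -0.45 (95% interval -0.82 to -0.08, limma adjusted p = 0.242), and it was -0.15 among arrays with brighter controls and -0.67 among those with dimmer ones.

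Cdk2, the kinase of cyclins E and A, had 222, 266 and 259.9 units in knockout pools and 253, 276 and 325 units in wildtype pools (1416873_a_at). The groups overlapped. Its difference was -0.18, with a 95% interval of -0.48 to 0.12 (limma adjusted p = 0.705), so a fall of the size seen in Cdk1 lies outside the interval. The difference of Cdk1 minus that of Cdk2 was -0.77, and all 3 knockout pools had a smaller log2 ratio of Cdk1 to Cdk2 (0.96 to 1.30) than the 3 wildtype pools (1.78 to 2.19). An exact two-sided permutation test over the 6 pools gave p = 0.1, which is the smallest that 3 pools against 3 allow. The difference of Ccna2 minus that of Ccne2 was -0.91, with the same exact p of 0.1. Those of Cdk1 and Ccnb2 lay above that of Ccna2 by 0.42 and 0.40, with no overlap of the ratios between genotypes and an exact p of 0.1 each, whereas those of Cdk1 and Ccnb2 were 0.02 apart (exact p = 0.9). Adjusted over these 5 pairs, the smallest p was 0.125. With 3 pools against 3 this test cannot give a p under 0.1, so it could not have called any pair, and the ratios are given as a description.

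For Ccne1, Cdc25a and Wee1 the 2 tested probe sets of the same gene gave opposite signs, and none was called. Ccne1 encodes cyclin E1, and its brighter probe set, 1441910_x_at, whose suffix marks probes that can also bind other transcripts, had 349.9, 574 and 371 units in knockout pools and 232, 205 and 709.7 units in wildtype pools. The other, 1416492_at, had 58.9, 50.2 and 69.8 units in knockout pools and 86.0, 108 and 45.3 units in wildtype pools. Wildtype pool 3 was the highest array in the first probe set and the lowest in the second. Their differences were 0.36 (SE 0.41) and -0.29 (SE 0.26), with adjusted p from limma of 0.893 and 0.835 in the fit over probe sets.

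Cdc25a, the phosphatase that activates Cdk2 at the start of S phase, showed the same arrangement. Probe set 1417131_at had 231, 281 and 200.1 units in knockout pools and 171, 154 and 359 units in wildtype pools, and 1417132_at had 55.7, 56.3 and 77.8 units in knockout pools and 92.1, 99.4 and 59.1 units in wildtype pools. Again wildtype pool 3 lay on the far side of the other wildtype pools in each. The differences were 0.14 (SE 0.28) and -0.32 (SE 0.21), with adjusted p from limma of 0.956 and 0.708.

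Wee1 probe set 1416774_at had 233, 258 and 224 units in knockout pools and 171, 151 and 312 units in wildtype pools. Its other probe set, 1416773_at, had 77.6, 101 and 118 units in knockout pools and 155, 152 and 145 units in wildtype pools. In the second the wildtype pools were close together and above all knockout pools, with a difference of -0.55 (SE 0.16, limma adjusted p = 0.172), while the first gave 0.22 (SE 0.23, limma adjusted p = 0.875).

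The ratio between the 2 probe sets of a gene followed the sets of arrays for these 3 genes. For Ccne1 the log2 ratio of the brighter to the dimmer probe set was 2.29 to 3.57 on the arrays with brighter spike-in controls and 0.84 to 2.17 on the others. For Cdc25a it was 1.78 to 2.32 against 0.56 to 1.20, and for Wee1 1.03 to 1.41 against -0.01 to 0.84. In all 3 the sets did not overlap, while in Ccna2 they did, at 0.61 to 0.95 against 0.58 to 0.86. Among arrays with brighter and then with dimmer controls, the brighter probe set differed between genotypes by -0.64 and 0.73 for Ccne1, by -0.47 and 0.28 for Cdc25a and by -0.33 and 0.44 for Wee1, so none of these 3 probe sets kept its sign. The dimmer probe set differed by 0.20 and -0.39 for Ccne1, by -0.06 and -0.25 for Cdc25a and by -0.62 and -0.34 for Wee1, so those of Cdc25a and Wee1 were below 0 in both. The part of the sets in these values was not tested.

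**Figure D3:**
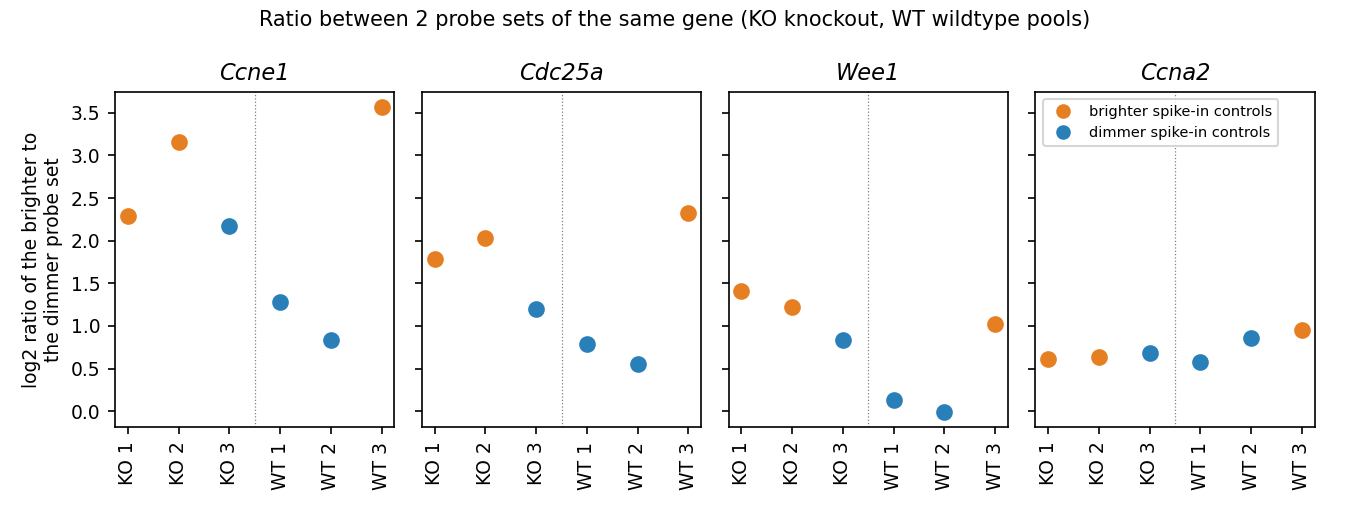
Log2 ratio between 2 probe sets of the same gene on each array, with knockout pools (KO) left of wildtype pools (WT), where orange points are arrays with brighter BioB and BioC spike-in controls and blue points those with dimmer ones. Orange points lie above blue points for Ccne1, Cdc25a and Wee1, and the 2 colours overlap for Ccna2.

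The number of members called changed most without wildtype pool 3. Without it, 8 of the 9 were called, 5 lower (Ccne2, Ccna2, Ccnb2, Cdk1 and Cdc25b) and 3 higher (Ccne1, Cdc25a and Wee1), but 9.88% of all genes were then called lower and 7.92% higher. In that fit the difference of Ccne2 was -0.60 (limma adjusted p = 0.0260), and those of Ccne1, Cdc25a and Wee1 were 0.91, 0.50 and 0.53 (limma adjusted p = 0.0303, 0.0685 and 0.0235). Over probe sets, the dimmer ones of the same 3 genes were called lower at once, with differences of -0.59 for Ccne1, -0.52 for Cdc25a and -0.59 for Wee1. Of 5228 genes with several tested probe sets, 29 (0.555%) had calls in both directions without wildtype pool 3, among them 3 of the 4 such members, whereas with all 6 arrays there were 0 of 5217. No direction is given for Ccne1, Cdc25a or Wee1.

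Other genes that act on these cyclins and kinases were read from a list of 34, of which 31 were tested. In knockout retinas 12 of the 31 fell and none rose, where 2.63% of all genes tested were called lower and 2.03% higher. The median difference was -0.46, against 0.02 over all genes tested. The 12 lower calls became 5 with median centring, 6 with a replicate block and 7 with no filter on dim genes. Cks1b and Cks2 encode small subunits that bind Cdks, and both fell. Cks2 had 655, 571 and 644 units in knockout pools and 1577, 1374 and 1313 units in wildtype pools, a difference of -1.17 (SE 0.10, limma adjusted p = 0.00117). Cks1b had 866, 897 and 932 units in knockout pools and 1457, 1457 and 1339.9 units in wildtype pools, a difference of -0.65 (SE 0.07, limma adjusted p = 0.00462). Both groups were tight and apart. Cdk7, Ccnh and Mnat1, the subunits of the kinase that activates Cdks, were not called, with differences of 0.43, 0.10 and 0.07.

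The next genes form the switch that controls Cdk1 by phosphorylation. Of 6 tested, Aurka and Plk1, kinases that promote entry into mitosis, fell, with differences of -0.76 and -0.47 (limma adjusted p = 0.0404 and 0.0777). Of 18 alternatives, Aurka lost its call in 7 and Plk1 in 11, median centring and the replicate block among them for both. Cdc25c, the third Cdc25 phosphatase, had 21.3, 30.6 and 53.2 units in knockout pools and 109, 160.1 and 53.7 units in wildtype pools, and its difference of -1.22 did not pass (limma adjusted p = 0.147). Its pools numbered 3 were nearly level, as in Cdc25b. Pkmyt1, which phosphorylates Cdk1 as Wee1 does, had a difference of -0.15.

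Genes that govern destruction of cyclins included Ube2c and Cdc20, which had the largest differences of the list. Of 9 tested, Cdc20, Ube2c, Fbxo5 and Skp2 were called lower. Cdc20, the mitotic activator of the ligase that marks cyclins A and B for destruction, had 334, 344 and 474 units in knockout pools and 1028, 1012 and 890.2 units in wildtype pools, a difference of -1.33 (SE 0.14, limma adjusted p = 0.00346). Ube2c, which supplies ubiquitin to that ligase, had 239, 237 and 302 units in knockout pools and 765, 723 and 556 units in wildtype pools, a difference of -1.34 (SE 0.15, limma adjusted p = 0.00444). Fbxo5, which inhibits the ligase until mitosis, fell by 0.87 on the log2 scale (limma adjusted p = 0.00802). Cdc20, Ube2c and Fbxo5 lost their calls in 1 of 18 alternatives each, that with pools 1 and 2 merged, and Skp2, a subunit of a ligase that destroys p27, lost its call in 12. Fzr1, the activator that takes over from Cdc20 in late mitosis and G1, had a difference of -0.06. Among the inhibitors of Cdks, Cdkn1b, which encodes p27, fell by 0.53 on the log2 scale (limma adjusted p = 0.0148), and Cdkn1a and Cdkn1c were not called, at -0.06 and 0.44. Cdkn1b lost its call in 4 of 18 alternatives, which were values as deposited, median centring, the mean of its probe sets and pools 1 and 2 merged, with an adjusted p from limma of up to 0.334.

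Of 8 tested genes that control transcription of the cyclins, 3 were called lower. Rbl1, a relative of the retinoblastoma protein, Lin9, a core subunit of the complex that binds CHR elements, and Foxm1, an activator of genes of G2 and mitosis, had differences of -0.71, -0.65 and -0.47 (limma adjusted p = 0.0705, 0.0678 and 0.0957). These calls were lost in 9 of 17 alternatives for Rbl1, 10 of 17 for Lin9 and 12 of 18 for Foxm1. E2f1, E2f3, Mybl2, Lin52 and Lin54 were not called, with differences of 0.02, -0.11, -0.01, 0.04 and -0.46. E2f2 was too dim to be tested, with 35.0, 37.1 and 49.0 units in knockout pools and 68.6, 102 and 74.9 units in wildtype pools, so that every knockout pool lay below every wildtype pool. Lower calls in the list were fewer without any 1 pool other than wildtype pool 3, at 6 without knockout pool 1 or 2 or wildtype pool 1 or 2 and 7 without knockout pool 3, and 1 remained with pools 1 and 2 merged, that of Cks2. Over all genes, 0.989% to 1.36% were called lower in the fits with 6 and 1.90% in that with 7. The share was 0.238% with pools merged, against 2.63% with all 6 arrays.

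**Figure D4:**
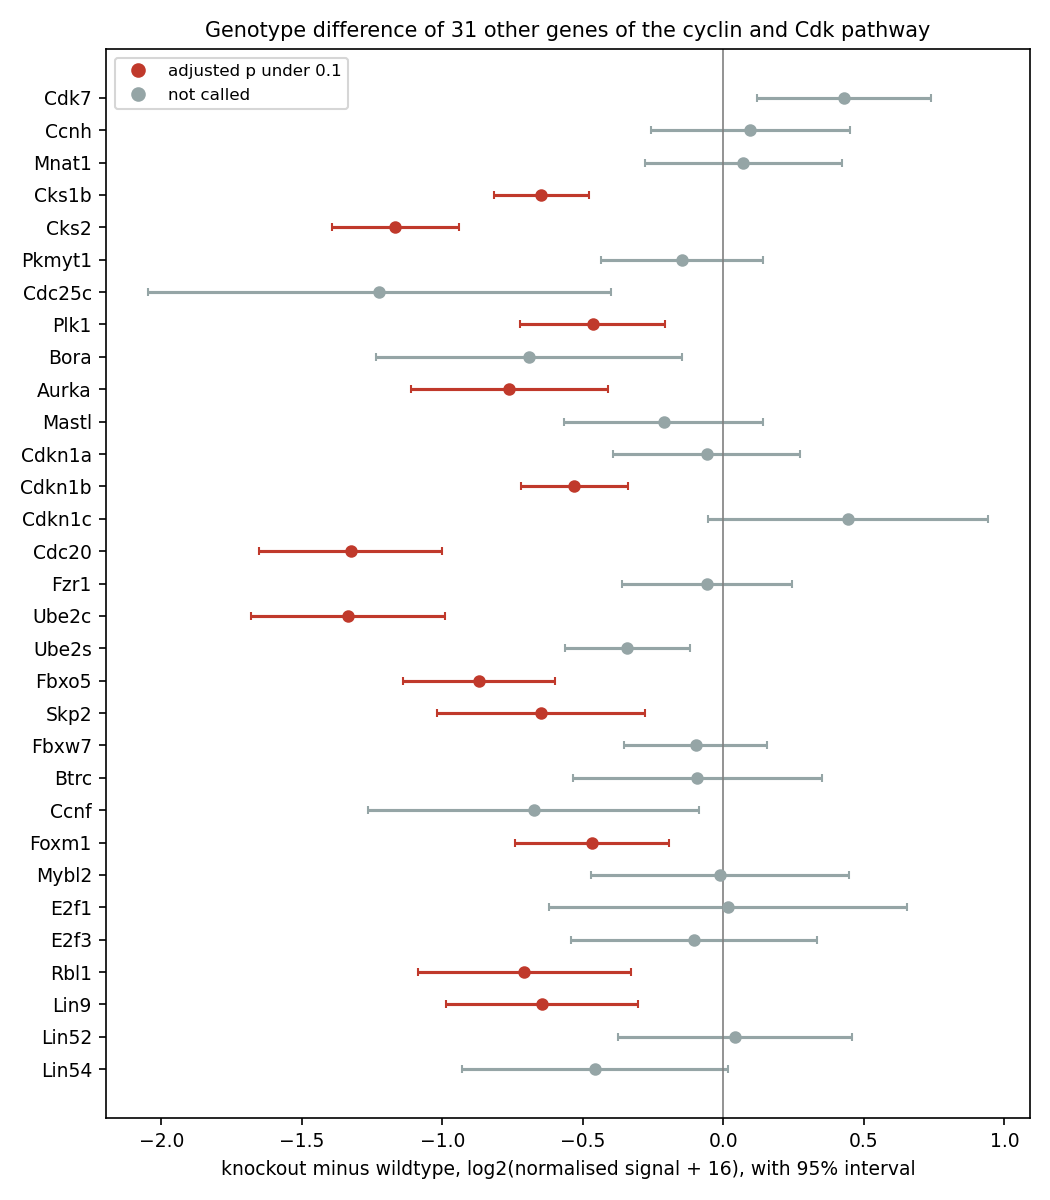
Difference of the 31 tested genes of the list, knockout minus wildtype on the log2 scale, with the 95% interval from limma. The 12 genes in red passed an adjusted p under 0.1 and all lie below 0, led by Ube2c and Cdc20.

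The genes whose pattern over the 6 arrays was most like that of 3 cyclins were found by Pearson correlation among the tested genes. For Ccna2 they were Smc2, a condensin subunit, Tipin, which acts at replication forks, and Gad1, which makes GABA, each with r = 0.996. For Ccnb2 they were Nup98, Wdr90 and Mex3c (r = 0.996, 0.995 and 0.993), and Ccnb2 took the place of Ccnb1, for which no value was available. For Ccne1, on the probe set with suffix x, they were Preb, Aqp9 and Got1l1 (r = 0.996, 0.994 and 0.994), and like Ccne1 each was highest in wildtype pool 3 and next in knockout pool 2. With 6 arrays such values are common, since 185, 202 and 191 genes had r over 0.95 with Ccna2, Ccnb2 and Ccne1.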

How the data were processed

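Retinas of newborn mice were pooled, and column-purified RNA was labelled with biotin after 1 round of amplification, per the labels' protocols. The deposited values are linear intensities, 1 for each probe set on each array. How probes were summarised and scaled is not given in the sources used here. Median intensity ran from 40.6 to 50.5 units between arrays, and precision is limited by their number.

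Of 45101 probe sets, 64 controls were left out, 932 had several symbols and 9160 were unnamed. Symbols follow RefSeq gene names of GRCm38.p6, matched by Entrez identifier. Values were quantile normalised, floored at 1 and taken to log2(value + 16). A gene was represented by its probe set with the highest mean, and testing left out the dimmest 40% of genes (7277). Knockout was compared with wildtype in limma 3.58.1 (R 4.3.3, intensity trend, no covariate, two-sided) over all genes and again over all singly named probe sets. The fits were checked on simulated data. Those values were drawn independently for each array, so the check does not cover effects shared by several arrays. Figures were drawn with matplotlib 3.10.9.

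The members, lists and alternatives were chosen with earlier results of these data known. Genes were named by rule: all members, Ccnd1, up to 3 called genes per role of the pathway list, and the 3 genes most like each of 3 cyclins. Skp2, uncalled and untested genes of the list, and genes like Ccnb2, were named outside it after their values were seen. Alternatives covered scaling, pseudocount, filter, probe set choice, variance model, threshold, blocks and left-out arrays. The replicate numbers did not pair the pools. Between arrays the SD of log2 differences was 0.46 and 0.52 for wildtype pool 3 against wildtype pools 1 and 2. Wildtype pools 1 and 2 each lay nearer than that to every knockout pool, at 0.33 to 0.44. Wildtype pool 3 gave 0.44, 0.40 and 0.50 against knockout pools 1, 2 and 3. Why wildtype pool 3 stood apart was not tested. Knockout pool 3 gave 0.30 and 0.28 against knockout pools 1 and 2. The smallest values were 0.21 for knockout pools 1 and 2 and 0.22 for wildtype pools 1 and 2. Whether these pools share tissue or RNA is not known.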

Additional observations from a re-analysis of the deposited data

How the results depend on the processing

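Over 18 alternatives each, Ccna2 and Cdk1 kept their calls, with log2 differences from -1.48 to -1.18 and from -1.04 to -0.75. Ccnb2 stayed negative in all 18, from -1.13 to -0.82, and lost its call in 5. In the fit with a replicate block its adjusted p from limma was 0.129, and that of Ccna2 and Cdk1 was 0.0142 each, although deviations of same-numbered pools correlated at 0.17, -0.35 and -0.48. Over all genes, calls lower and higher were 143 and 126 in that fit, 26 and 17 with pools 1 and 2 averaged, and 433 and 597 with a block for the spike-in set. They were 135 and 156 with median centring and 228 and 165 with no filter on dim genes. Without wildtype pool 3 they were 1079 and 865, and without any 1 other pool 108 to 207 and 69 to 129. The count of members called lower was 2 to 5 and that called higher 0 to 3 with 1 pool left out. Over probe sets these counts were 3 to 9 and 0 to 3. Only leaving out wildtype pool 3 moved any of these 4 counts by over 1.5 times. Cdk2 was called in none of 18 alternatives. Cdc25a and Wee1 were below 0 in 6 and 2 of 18 alternatives, among them the mean of a gene's probe sets. The 12 pathway genes called lower, a count followed through the alternatives only after seeing the data, were 5 with arrays centred on their medians, 7 with no filter on dim genes, 6 with a replicate block, 1 with pools 1 and 2 averaged, and 6 to 16 with 1 pool left out. The count called higher was 1 with values as deposited, 1 with a block for the spike-in set, and 0 to 1 with 1 pool left out. Dim probe sets are limited by signal over background, for which no detection calls were used.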
